A study of Mus musculus with 7 samples.

Results

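The genes described here are 8 genes of the interleukin-10, interleukin-17 and interleukin-6 systems, set by symbol: the cytokine genes Il10 and Il17a and the receptor chain genes Il10ra, Il10rb, Il17ra, Il17rc, Il6ra and Il6st. They were read among 25469 genes with a count in at least 1 library. RNA-sequencing was performed on splenic CD4+CD25+ cells, the surface type by which regulatory T cells (Tregs) are isolated, taken with magnetic beads from wild-type (WT) mice. The aged group was 18-month-old mice (3 biological replicates) and the young group 8-week-old mice by the sample labels (4 biological replicates). The study's methods give a somewhat higher age for the young mice, and describe male C57BL/6 mice. No treatment or transgene was involved, and the comparison asks how splenic Tregs differ with age.

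Interleukin-10 restrains inflammation and is a main product of effector Tregs. It binds a receptor made of the ligand-binding chain IL-10RA and the broadly shared chain IL-10RB, and signals through Jak kinases and Stat3. Interleukin-6 binds IL-6RA and then the shared signalling chain gp130, encoded by Il6st, also to Stat3. In T cells this favours the Th17 fate, whose product interleukin-17A acts through a receptor of IL-17RA and IL-17RC, and the transcription of Il6ra is known to be high in naive T cells and to fall after activation.

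Of the 8 genes, 6 passed the filter on low counts, and 2 of these were called (Benjamini-Hochberg adjusted p below 0.05 over 13904 genes in edgeR's quasi-likelihood fit), namely Il6ra and Il17ra. Both were lower in aged Tregs. Among all genes tested, 16.7% were called, 6.94% as lower and 9.8% as higher in aged Tregs. The 4 other tested genes, Il10, Il10ra, Il10rb and Il6st, had higher means in aged Tregs and were not called. The median log2 fold change of the 6 tested genes was 0.24, against 0.02 for all genes tested. Aged and young libraries did not overlap in 2 of the 6 tested genes, and this was the case in 29.9% of all genes tested. Il17a and Il17rc did not pass the filter and were read from a fit without it.

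**Figure D1:**
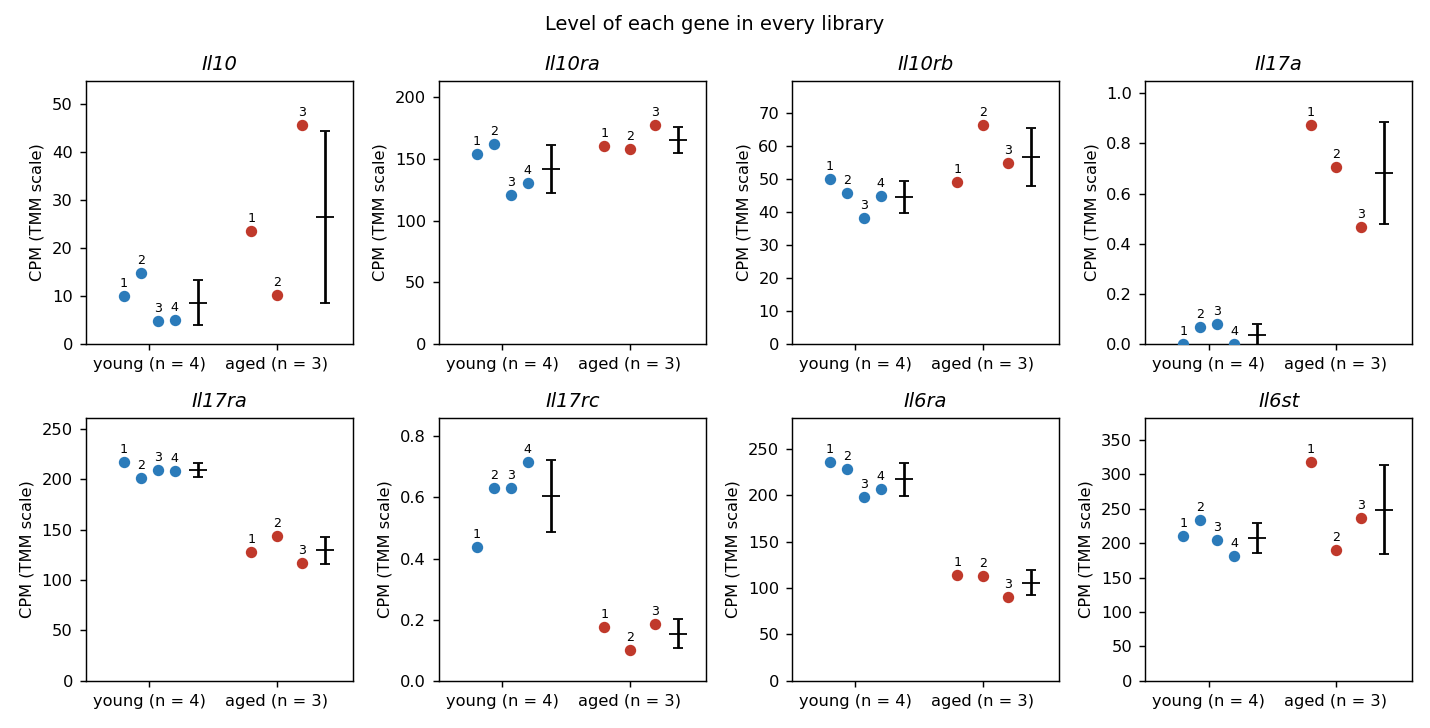
Each panel plots the level of 1 gene in read counts scaled to library size (CPM, TMM scale) on a linear axis from 0, with 1 point per library numbered by replicate and the mean ± SD of each age beside the points. Il6ra and Il17ra lie lower in all 3 aged libraries than in all 4 young ones, Il10 spreads from 10.3 to 45.7 CPM in the aged group, and Il17a and Il17rc stay below 1 CPM.

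The libraries held 10734234 to 11244060 reads on genes in the aged and 12039894 to 13649310 in the young group. The limit of detection was set at 3 counts, equal to 0.22 to 0.28 CPM. Foxp3, the transcription factor that defines Tregs, had a level of 516 ± 93.3 CPM in the aged group (SD, n = 3), against 446 ± 61.8 CPM in the young group (SD, n = 4), with a log2 fold change of 0.21 (adjusted p = 0.409, edgeR). The fold changes of Il2ra, which encodes CD25, and of Cd4 were -0.61 (adjusted p = 0.0588) and -0.30 (adjusted p = 0.117), also without a call by edgeR. Of 8 T cell markers edgeR called Cd3e higher (log2 fold change 0.46, adjusted p = 0.0301) and Cd5 lower (-0.42, adjusted p = 0.0422). These calls held in 2 and 1 of the 7 fits with a library left out. With DESeq2, 1 of the 8 was called higher and 2 were called lower. Besides Cd5, only Cd4 of these 8 had a negative fold change by edgeR. Of the 12 Treg marker genes, Gpr83 was called lower (log2 fold change -1.71, adjusted p = 0.00274, edgeR), and Itgae, Tigit and Icos were called higher (1.89, 1.58 and 0.92), of which Icos held in 3 of the 7 fits with a library left out. Without young replicate 2, 5 of the 12 were called higher. The number called lower was 2 with DESeq2, limma voom, no filter or GC content and gene length trends removed. It was also 2 without aged replicate 1. Besides Gpr83, only Il2ra of the 12 had a negative fold change by edgeR, so its lack of a call depended on the setting. Of 11 naive T cell marker genes 10 were lower in aged cells, with a summed level of 1579 to 2106 CPM against 2773 to 3331 CPM, and of 13 effector memory marker genes 5 were higher (3 without aged replicate 3 or young replicate 4). The summed neutrophil markers (5 of 11 called higher) were 5447, 1960 and 755 CPM in aged replicates 1 to 3 and 276 to 972 CPM in the young libraries. This count of 5 was 2 without young replicate 1 or young replicate 4, 3 without aged replicate 1 and 8 without aged replicate 3. Macrophage markers summed to 422 to 576 CPM in aged and 538 to 632 CPM in young libraries, and of these 12 genes 4 were called lower (Csf1r, Mertk, Adgre1 and Vcam1) and Cd14 higher, in all 7 fits with a library left out. Of 10 B cell markers (1095 to 2024 and 1543 to 2437 CPM) edgeR called 0, with 4 lower at an unadjusted p under 0.05, and 3 were called lower with DESeq2, 1 with limma voom, 2 without a filter and 3 without aged replicate 3. Erythroid markers, with 0 calls by edgeR, DESeq2 and limma voom and 0 genes at an unadjusted p under 0.05, summed to 13220, 161000 and 81470 CPM in aged replicates 1 to 3 and to 119900, 12620, 63740 and 62940 CPM in young replicates 1 to 4. Platelet markers summed to 21.1 to 41.6 CPM in aged and 8.62 to 18 CPM in young libraries. Ppbp and Treml1 were called higher (in 4 and 2 of the 7 fits with a library left out). Of 8 NK cell markers Klrb1c was called lower (in 4 of these fits). The count of NK cell markers called lower was 3 without young replicate 2 and 2 with DESeq2. No marker list had a gene at 0 in all libraries. In such bulk RNA, fewer cells of a type and less RNA per cell cannot be told apart.

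Il6ra showed the larger fall. It encodes the chain that binds interleukin-6, on the minus strand of chromosome 3 from 89864059 to 89913196 (GRCm38, 10 exon blocks). The levels were 114, 113 and 90.3 CPM in aged replicates 1 to 3 and 236, 228, 198 and 206 CPM in young replicates 1 to 4. Every aged library lay below every young library, with a gap between 114 and 198 CPM. The aged mean was 106 ± 13.4 CPM (SD, n = 3) and the young mean 217 ± 17.8 CPM (SD, n = 4), so that aged Tregs held 48.7% of the young level. The log2 fold change was -1.04 (standard error 0.12, 95% interval -1.31 to -0.76, adjusted p = 0.00158, edgeR). This call was made in 17 of 17 alternative settings, and stayed between -1.10 and -0.94 with any library left out. The fall in Il6ra moved with that of the naive T cell marker genes given above. It also moved with the macrophage markers Csf1r, Mertk and Adgre1, whose log2 fold changes were -1.12, -1.04 and -0.70 at aged levels of 33.1 to 54.4, 3.22 to 5.24 and 12.8 to 16.8 CPM, although Cd14 of the same list rose (1.15, adjusted p = 0.0132, edgeR) and Cd68 and Lyz2 had values of -0.06 and 0.22. Il6ra moved too with the dendritic cell markers, of which 3 of 9 were called lower and 1 higher (summed level 45.7 to 67.4 CPM in aged and 64.3 to 83.9 CPM in young libraries). Of these, Clec9a was called in 1 and Zbtb46 in 6 of the 7 fits with a library left out. With at least 10 counts in each library 1 dendritic marker was called lower. The number called lower was 5 with DESeq2, and 4 without a filter and without aged replicate 3. With T cell marker counts as library size 2 were called lower and 0 higher. The part of any of these cell types in Il6ra or Il17ra was not tested.

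Il6st, the gene of gp130 (chromosome 13 from 112464070 to 112510086, plus strand, 20 exon blocks), did not fall with its partner. Its levels were 318, 191 and 236 CPM in the aged libraries and 211, 233, 205 and 181 CPM in the young ones. Aged replicate 1 was the highest of all, aged replicate 2 lay inside the young range, and aged replicate 3 just above it. The aged mean was 248 ± 64.7 CPM (SD, n = 3) against a young mean of 208 ± 21.3 CPM (SD, n = 4), and the log2 fold change was 0.26 (standard error 0.17, 95% interval -0.14 to 0.65, adjusted p = 0.345, edgeR). Without aged replicate 1, which also had the highest neutrophil marker level, the log2 fold change was 0.03.

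The sequence before the start of both genes is shown because they encode partner chains of a single receptor and differed in direction of the mean. The windows are the 250 bases upstream of the RefSeq start on GRCm38.p6, 5′ to 3′ on the strand of the gene, Il6ra at chr3:89913197-89913446 (minus strand) and Il6st at chr13:112463820-112464069 (plus strand). The letters sought on either strand were TATAAA for the TATA element, GGGCGG for the GC box, CCAAT for the box of that name, and TTCNNNGAA for a STAT element, and capitals mark where they occur.
Il6ra promoter: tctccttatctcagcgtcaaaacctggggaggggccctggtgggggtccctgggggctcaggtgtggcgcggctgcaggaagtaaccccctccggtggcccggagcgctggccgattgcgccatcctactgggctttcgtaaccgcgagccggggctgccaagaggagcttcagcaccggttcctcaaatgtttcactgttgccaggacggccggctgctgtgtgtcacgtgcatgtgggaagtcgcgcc
Il6st promoter: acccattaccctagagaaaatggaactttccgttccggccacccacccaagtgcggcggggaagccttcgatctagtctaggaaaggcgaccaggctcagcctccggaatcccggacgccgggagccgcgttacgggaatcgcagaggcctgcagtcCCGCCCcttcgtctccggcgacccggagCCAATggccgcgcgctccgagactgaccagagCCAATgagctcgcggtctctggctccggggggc
Both windows are rich in G and C, at 65.2% in Il6ra and 66% in Il6st, against a median of 52.4% over 32851 windows of the same length. They hold 18 and 26 CpG dinucleotides, where the median window holds 6. In Il6st a GC box begins 93 bases and CCAAT boxes begin 65 and 33 bases upstream of the start. In the Il6ra window none of these letters occur. A GC box occurs in 32.7%, a CCAAT box in 33.9%, a TATA box in 12.4% and the STAT element in 7.02% of all windows. In GENCODE M21 all 250 bases of the Il6ra window are annotated as exon. Gm42809, a gene on the opposite strand, shares 2.8% of the Il6ra exon bases. It had 14 to 36 counts per library. Since reads were counted without strand, reads in the shared bases cannot be told apart.

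The ratio of both chains was then taken within each library, where library size has no part. The Il6ra to Il6st ratio of counts was 0.359, 0.591 and 0.383 in the aged and 1.12, 0.977, 0.968 and 1.14 in the young libraries. In all 4 young libraries the reads of both genes were close to equal, and in all 3 aged libraries Il6ra had the fewer reads. The difference was -1.27 on the log2 scale, a ratio 2.42 times higher in young Tregs. The exact two-sided permutation test over 35 splits gave p = 0.0571, the smallest p that 3 against 4 libraries allow, and 0.0856 after adjustment over the 3 ratios.

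**Figure D2:**
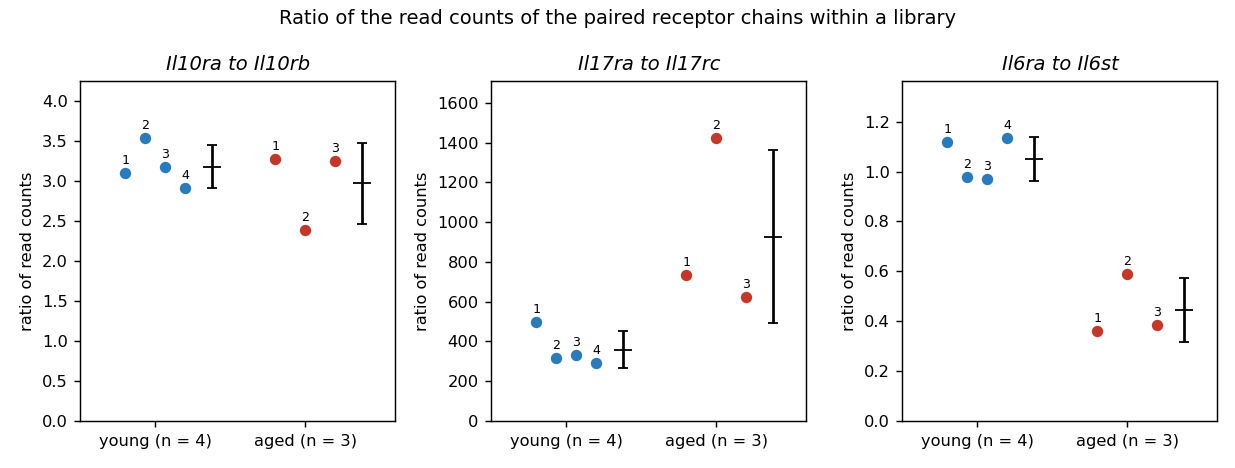
Each panel plots the ratio of read counts of a pair of receptor chain genes in each library (points numbered by replicate, linear axis from 0) with the mean ± SD of each age. The Il6ra to Il6st ratio is 0.359 to 0.591 in aged and 0.968 to 1.14 in young libraries, the Il10ra to Il10rb ratio overlaps between the ages, and the Il17ra to Il17rc ratio rests on 1 or 2 Il17rc reads in each aged library.

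Other genes of the interleukin-6 family were read beside them. Of 11 ligand genes, 4 were tested and Osm, the gene of oncostatin M, was called, higher in aged Tregs. Its levels were 39.6, 25.1 and 28 CPM in the aged and 19.9, 16.5, 16.8 and 19.1 CPM in the young libraries (log2 fold change 0.77, adjusted p = 0.0189, edgeR). The call was lost without young replicate 3 (adjusted p = 0.0575) and with T cell marker counts as library size, while 2 ligand genes were called higher without aged replicate 1, without aged replicate 2 and with DESeq2. For Osm the log2 fold change was lowest, at 0.55, without aged replicate 1, which had the highest neutrophil marker level. The part of neutrophils in Osm or Socs3 was not tested. The ligand gene Il6 itself had 3 counts over all aged and 9 over all young libraries, and Il27 had 36 and 6, of which most of the aged counts came from 1 library at 2.18 CPM. Of 8 receptor genes, 6 were tested and edgeR called Il6ra alone. In each of 4 other settings (DESeq2, limma voom, without aged replicate 1, without young replicate 3) 1 receptor gene was called higher, not necessarily the same gene. Il27ra, which encodes the receptor chain for interleukin-27 and pairs with gp130, had 234 ± 24 CPM in the aged group (SD, n = 3) and 214 ± 16.5 CPM in the young group (SD, n = 4) (adjusted p = 0.445, edgeR). Osmr had a log2 fold change of 1.97 at only 39 and 16 counts in all (adjusted p = 0.0559, edgeR). Adam10 and Adam17, whose proteases can shed IL-6RA from the cell surface, had log2 fold changes of -0.20 and -0.19 and were not called (adjusted p = 0.217 and 0.162, edgeR).

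Il17ra, the gene of the chain shared by receptors of the interleukin-17 family (chromosome 6 from 120463247 to 120487559, plus strand, 12 exon blocks), was the other called gene. The aged libraries had 128, 144 and 117 CPM, the young libraries 217, 201, 209 and 208 CPM. The young libraries lay close together, with a coefficient of variation of 3.25%, and the highest aged library stayed well under the lowest young one. Aged Tregs held 62% of the young level, a log2 fold change of -0.69 (standard error 0.10, 95% interval -0.92 to -0.46, adjusted p = 0.00365, edgeR). It was called in 16 of 17 alternative settings, and in all 7 fits with a library left out. Its profile over the 7 libraries differed from that of Il6ra by a root mean square of 0.20 on the log2 scale. The same measure was 0.17 between Il10ra and Il10rb. It was 1.49 between Il10 and Il6ra, the largest value among the tested genes.

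Il17rc, the gene of the partner chain (chromosome 6 from 113471427 to 113483140, plus strand), was barely read in these cells. The counts were 2, 1 and 2 in the aged and 5, 9, 8 and 10 in the young libraries, equal to 0.154 ± 0.0467 CPM (SD, n = 3) and 0.604 ± 0.118 CPM (SD, n = 4). Every aged library was under the limit of 3 counts and every young library over it. The pooled ratio of aged to young counts, scaled to library size, was 0.255 (95% interval 0.0776 to 0.659, counting error only). The exact permutation p was 0.0571, the smallest possible, and the fit without a filter gave an adjusted p of 0.0838, with no call in 15 of 15 alternative settings. The Il17ra to Il17rc ratio was 733, 1425 and 625 in the aged and 498, 318, 330 and 291 in the young libraries. It was 2.47 times higher in the aged group (exact permutation p = 0.0571, adjusted over the 3 ratios 0.0856), with 5 aged Il17rc reads in all behind it. On the log2 scale this difference was 1.30, and 0.76 with 1 count added to both chains.

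Il17a, the cytokine gene itself, lies on chromosome 1 from 20730905 to 20734496 (plus strand, 3 exon blocks). Its counts were 10, 7 and 5 in the aged and 0, 1, 1 and 0 in the young libraries. All 3 aged libraries were over the limit of 3 counts and all 4 young ones under it. The levels were 0.682 ± 0.204 CPM (SD, n = 3) and 0.0373 ± 0.0432 CPM (SD, n = 4), and the pooled ratio was 18 (95% interval 4.41 to 157, counting error only) from 22 against 2 reads. In the fit without a filter the adjusted p was 0.0129 (edgeR), where 8.72% of 25469 genes were called. The exact permutation p was 0.0571, and 14 of 15 alternative settings also gave a call. The fitted log2 fold change of 3.82 depends on the prior count at such low counts and is no bound.

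The sequence before Il17a is shown for the cytokine gene whose reads came almost wholly from aged libraries, with the same letters sought, at chr1:20730655-20730904 on the plus strand of GRCm38.p6.
Il17a promoter: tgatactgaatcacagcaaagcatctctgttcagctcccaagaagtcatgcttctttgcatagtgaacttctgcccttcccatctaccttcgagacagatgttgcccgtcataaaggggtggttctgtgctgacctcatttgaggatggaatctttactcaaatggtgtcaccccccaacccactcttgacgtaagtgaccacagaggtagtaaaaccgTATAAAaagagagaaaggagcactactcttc
A TATA box begins 31 bases upstream of the start. The window holds 46% G and C and 4 CpG dinucleotides, fewer of both than the median window. The Il17rc window, not printed, also holds 4 CpG dinucleotides, at 57.6% G and C and with none of the letters sought. The motifs were chosen after the windows had been seen, and a match of letters is a description and not a site.

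Genes of the Th17 programme were read beside it. Of 14 listed genes 11 were tested, of which edgeR called 3 higher and 0 lower, with 0 lower at an unadjusted p under 0.05 or by DESeq2 or limma voom, and 8 were not called. Il21, a cytokine of T follicular helper and Th17 cells, was read at 9, 6.14 and 13.5 CPM in the aged and 0.350, 0.631, 0.553 and 0.645 CPM in the young libraries (log2 fold change 4.09, adjusted p = 0.000529, edgeR). Its receptor gene Il21r rose with a log2 fold change of 0.48 (adjusted p = 0.0185, edgeR), a call held in 3 of 7 fits with a library left out. Batf, a factor needed for Th17 cells, rose as given below. Il17f had 13 aged and 9 young counts and Il22 had 1 and 11.

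Gamma delta T cells, most of which lack CD4, are another source of Il17a in the spleen. Their part in the Il17a reads was not tested. The summed level of 6 of their markers was 87.4 to 148 CPM in aged and 134 to 171 CPM in young libraries. Most of it was Blk, a kinase gene also expressed in B cells, at 64.9 to 128 and 91.4 to 134 CPM. The other 5 genes, set apart after their values were seen, summed to 20.3 to 25 CPM in aged and 35.5 to 49.3 CPM in young libraries. Tcrg-C1 and Tcrg-C4 were called lower, calls that held in 3 and 2 of the 7 fits with a library left out, and neither was called without aged replicate 2, aged replicate 3 or young replicate 3. Sox13 of this list went the other way, with a log2 fold change of 0.76 and no overlap between the ages, and was not called (adjusted p = 0.0931, edgeR). Of the 15 genes of IL-17 receptor signalling, all tested, edgeR called Cebpb alone. The calls in this list were 2 higher and 3 lower without aged replicate 1, 1 and 2 with DESeq2, 2 and 1 with limma voom, 2 and 0 with at least 10 counts in each library, and 3 and 0 with GC content and gene length trends removed. Cebpb, a factor of interleukin-17 target genes, rose with a log2 fold change of 1.42 (adjusted p = 0.0172, edgeR) and had 5.41 ± 2.17 CPM in the aged group (SD, n = 3) against 2.01 ± 0.383 CPM in the young group (SD, n = 4). The call was lost without aged replicate 3, young replicate 1 or young replicate 3 (adjusted p up to 0.0569). Cebpb is also expressed in myeloid cells, whose part was not tested. Of the other IL-17 receptor genes, Il17rb, Il17rd and Il17re had log2 fold changes of -0.25, -0.98 and -0.80 and none was called (adjusted p = 0.584, 0.101 and 0.112, edgeR).

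Among the 6 tested genes, Il10 had the highest aged to young ratio and the widest spread between replicates. The gene lies on chromosome 1 from 131019845 to 131024974 (plus strand, 5 exon blocks). Its levels were 23.5, 10.3 and 45.7 CPM in aged replicates 1 to 3 and 9.96, 14.8, 4.74 and 5.09 CPM in young replicates 1 to 4. Aged replicate 2 lay between young replicates 1 and 2, so that the groups overlapped, while aged replicates 1 and 3 were above all young libraries. Within an age the highest library was 4.45 times the lowest in the aged and 3.12 times in the young group. The means were 26.5 ± 17.9 CPM (SD, n = 3) and 8.64 ± 4.74 CPM (SD, n = 4).

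The log2 fold change of Il10 was 1.61 (standard error 0.53, 95% interval 0.40 to 2.83), with an adjusted p of 0.0718 (edgeR) and an exact permutation p of 0.114. It was not called, although the unadjusted p of edgeR's test was 0.0151. It was called in 3 of 17 alternative settings: without a filter (adjusted p = 0.0354), without aged replicate 2 (adjusted p = 0.0336) and without young replicate 2 (adjusted p = 0.0422). Over all 17 the adjusted p ran from 0.0336 to 0.359. Leaving out aged replicate 3 brought it to 0.97 on the log2 scale (adjusted p = 0.281, edgeR). The pooled ratio of 859 aged to 456 young reads, scaled to library size, was 3.07 with a counting interval of 2.74 to 3.45, far narrower than the interval over libraries.

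**Figure D3:**
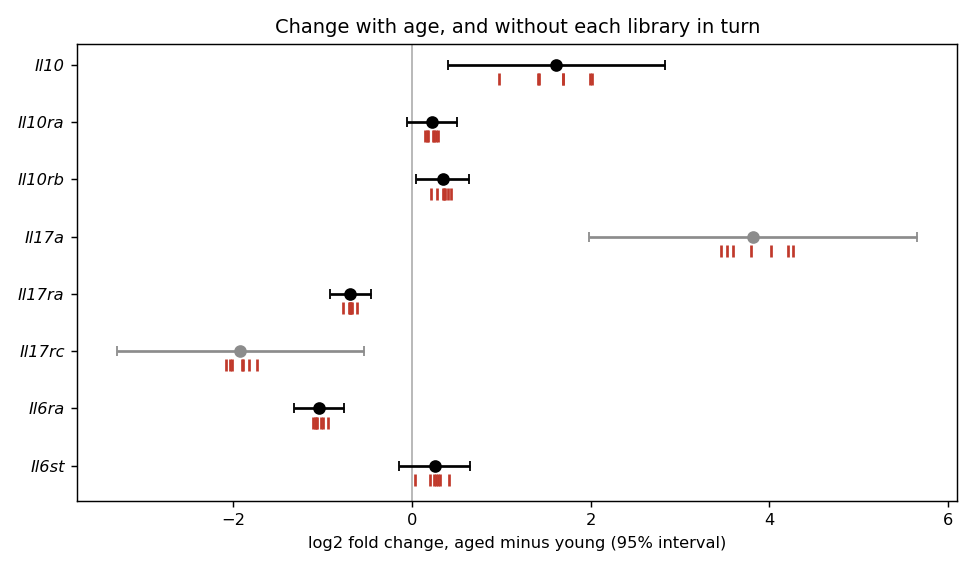
The log2 fold change of each gene (aged minus young, points) is drawn with its 95% interval (bars), and ticks under each point give the value with each library left out in turn. Black points are from the fit with the filter and grey points from the fit without it (Il17a, Il17rc). The values of Il6ra and Il17ra stay below 0 in each of the 7 fits, and those of Il10 run from 0.97 to 2.01.

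Both receptor chain genes of interleukin-10 were read in all libraries at steady levels. Il10ra (chromosome 9 from 45253837 to 45269149, minus strand) was at 161, 158 and 177 CPM in the aged and 154, 162, 121 and 130 CPM in the young libraries. The groups overlapped, since young replicate 2 lay above aged replicates 1 and 2. The log2 fold change was 0.22 (standard error 0.12, 95% interval -0.06 to 0.50, adjusted p = 0.253, edgeR). Il10rb (chromosome 16 from 91406164 to 91425834, plus strand) was at 49.0, 66.4 and 54.7 CPM in the aged and 49.9, 45.8, 38.2 and 44.9 CPM in the young libraries. Aged replicate 1 lay under young replicate 1, and the other aged libraries above all young ones. Its log2 fold change was 0.34 (standard error 0.13, 95% interval 0.04 to 0.64, adjusted p = 0.108, edgeR). Neither was called in any of 17 alternative settings. Of the Il10rb exon bases, 14.9% are shared with Gm21970, which was listed at 0 counts in each library. The Il10ra to Il10rb ratio was 3.28, 2.38 and 3.24 in the aged and 3.09, 3.54, 3.17 and 2.91 in the young libraries (exact permutation p = 0.629).

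Of the 7 ligand genes of the interleukin-10 family Il10 alone was tested, and of 7 receptor genes 3 were tested. edgeR called 0 of these 3 receptor genes, with 2 higher at an unadjusted p under 0.05. DESeq2 called 2 of 6 higher, limma voom called 0, and 1 was called without aged replicate 2. Il20rb, a receptor chain for the interleukin-20 group of cytokines, was at 8.74, 1.91 and 6.36 CPM in the aged and 2.01 to 2.72 CPM in the young libraries (log2 fold change 1.25, adjusted p = 0.0833, edgeR). As with Il10, aged replicate 2 was the lowest aged library.

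The genes of transcription factors that act on Il10 in T cells were then read, 12 in number and all tested, of which 4 were called higher and 2 lower. Maf, which activates the Il10 gene, was at 119, 126 and 149 CPM in the aged and 62.4, 69.4, 52.2 and 57.3 CPM in the young libraries. The groups lay far apart, with a log2 fold change of 1.12 (adjusted p = 0.00131, edgeR). Batf, a factor of activated and effector Tregs, had a log2 fold change of 1.00 (adjusted p = 0.00397, edgeR), and both calls held in all 7 fits with a library left out.

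Bhlhe40, a factor known as a repressor of Il10, was at 186, 94.2 and 213 CPM in the aged and 73.4, 84.9, 51.3 and 67.9 CPM in the young libraries (log2 fold change 1.25, adjusted p = 0.018, edgeR). Prdm1, which encodes Blimp-1, was at 58.1, 38 and 53.9 CPM against 20.3, 36.2, 15.2 and 15.6 CPM (log2 fold change 1.2, adjusted p = 0.0326, edgeR). In both genes aged replicate 2 was the lowest aged library and young replicate 2 the highest young library, as in Il10. The calls held in 4 and 2 of the 7 fits with a library left out. Summed plasma cell markers, a list that holds Prdm1 itself, were 888, 1139 and 1438 CPM in the aged and 420, 2134, 612 and 520 CPM in the young libraries. Young replicate 2 stood out there too, but aged replicate 1 was the lowest aged library. Summed Treg markers were 3944, 3407 and 3748 CPM in the aged and 3077, 3846, 2704 and 2350 CPM in the young libraries. In that sum aged replicate 2 was the lowest aged and young replicate 2 the highest young library. In the erythroid markers given above, aged replicate 2 was the highest of all libraries and young replicate 2 the lowest, close to aged replicate 1. The part of the Treg share, plasma cells or erythroid RNA in Il10, Prdm1 and Bhlhe40 was not tested. Ets1 and Ikzf1 fell, with log2 fold changes of -0.57 (adjusted p = 0.0398, edgeR) and -0.54 (adjusted p = 0.0239), calls that held in 1 and 2 of the 7 fits. With library size only as the scaling, 0 genes of the list were called lower, and with T cell marker counts as library size 1.

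**Figure D4:**
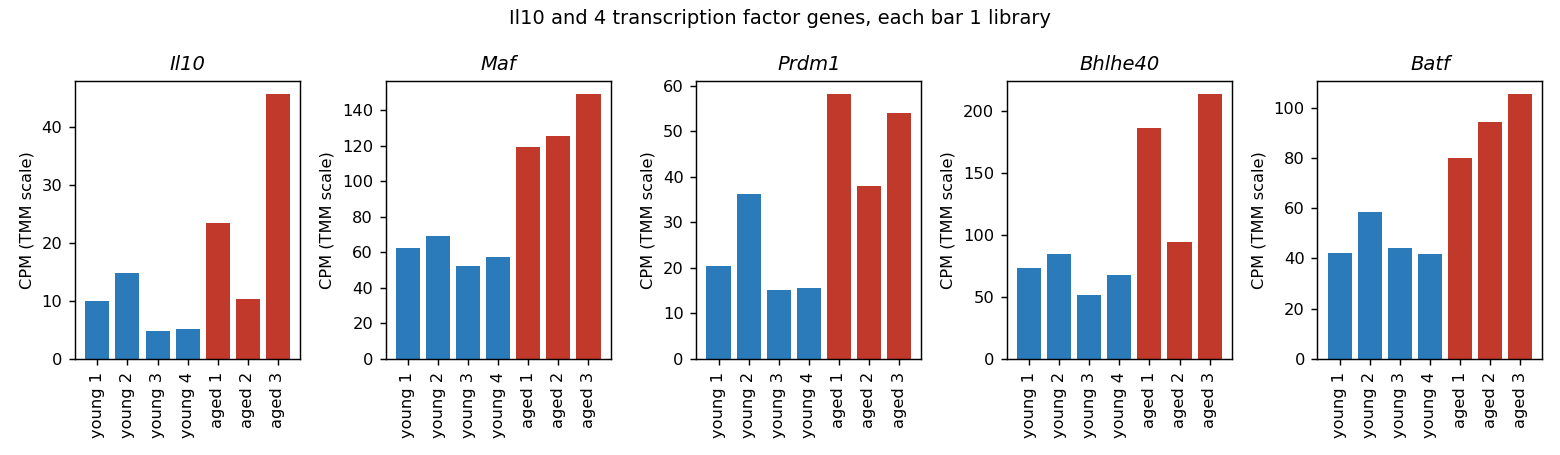
Bars give the level in CPM (TMM scale, linear axis from 0) of Il10 and of the 4 called higher genes of transcription factors that act on it, 1 bar per library, young in blue and aged in red. Aged replicate 2 is the lowest aged library and young replicate 2 the highest young library for Il10, Prdm1 and Bhlhe40, and for Maf and Batf the lowest aged library lies above the highest young library too.

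Both the interleukin-10 and the interleukin-6 receptors signal through Jak kinases and Stat proteins. Of 11 genes of this route, all tested, edgeR called 4 higher in aged Tregs and 0 lower, with 1 lower at an unadjusted p under 0.05. DESeq2 and limma voom each called 4 higher and 1 lower, and 2 were called higher with library size only as the scaling. Stat3 was at 321, 279 and 327 CPM in the aged and 225, 237, 202 and 215 CPM in the young libraries (log2 fold change 0.49, adjusted p = 0.0169, edgeR), a call lost without aged replicate 3, young replicate 3 or young replicate 4 (adjusted p up to 0.0618). Socs3, a target of Stat3 whose protein blocks gp130, was at 220, 144 and 146 CPM in the aged and 81.3, 79.6, 58.0 and 76.8 CPM in the young libraries. All aged libraries were above all young ones, with a log2 fold change of 1.2 (adjusted p = 0.00427, edgeR). The call of Socs3 held in all 7 fits with a library left out, with the lowest value, 0.97, without aged replicate 1, the library with the most neutrophil marker reads, and that of Pias3 (log2 fold change 0.54, adjusted p = 0.0373, edgeR), which encodes an inhibitor of Stat3, in 1. The Jak1 gene had a log2 fold change of -0.37 (adjusted p = 0.0517, edgeR) and was named in addition after its values were seen.

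Levels were compared between genes per kilobase of exon. In young Tregs Il10ra came first with 40.6 CPM per kilobase, above Il6ra with 25.1, Il17ra with 24.1, Il6st with 18.7, Il10rb with 11.7 and Il10 with 6.60. Il17rc and Il17a followed far below with 0.226 and 0.0318. The ranges of the neighbours Il6ra and Il17ra overlapped, as did those of Il10rb and Il10. In aged Tregs Il10ra was again first with 47.2 CPM per kilobase, then Il6st with 22.4, Il10 with 20.2, Il17ra with 15.0, Il10rb with 14.9, Il6ra with 12.2, Il17a with 0.583 and Il17rc with 0.0577. Il6ra thus went from rank 2 in young to rank 6 in aged Tregs. From Il6st to Il6ra each aged range overlapped that of its neighbour, so that the order there is not resolved.

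**Figure D5:**
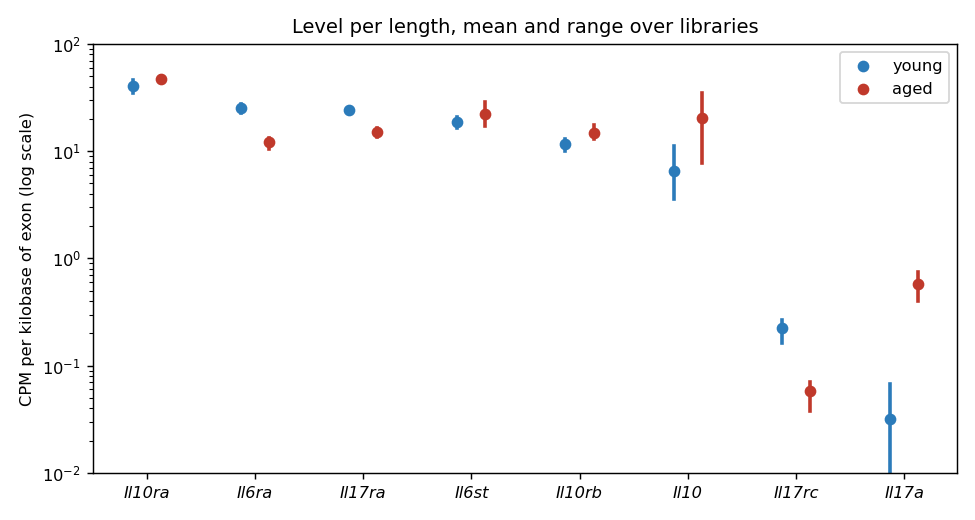
Points give the mean level in CPM per kilobase of exon on a log axis and lines the lowest to the highest library, for young (blue, n = 4) and aged (red, n = 3) Tregs, in the order of the young means. Il6ra goes from 25.1 to 12.2 and Il10 from 6.60 to 20.2, and the lower end of the young Il17a line is cut by the axis because its lowest libraries have 0 counts.

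The genes with the most similar profile over the 7 libraries were sought among 9420 genes, as the smallest root mean square difference of centred log2 CPM. Nearest to Il6ra were Bin2, S1pr4 and Slc35g1, at 0.07, 0.08 and 0.11. Nearest to Il17ra were Hsdl1, Eno3 and Nrros, at 0.03, 0.05 and 0.06. S1pr4 encodes a receptor for sphingosine-1-phosphate on lymphocytes and Nrros a protein that binds latent TGF-β1. For Il10 the nearest were Cdh23, Ighv5-9-1 and Bhlhe40, at the far larger distances of 0.44, 0.45 and 0.47. The measure is not scaled to the spread of a gene, and Il10 had the widest spread between replicates. The 3 nearest genes were Rnf103, Man1a and Nipsnap1 for Il10ra, Sgf29, Zscan26 and Adck5 for Il10rb, and Nampt, Lamc1 and Asxl2 for Il6st.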

How the data were processed

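RNA-sequencing counts of 3 aged and 4 young libraries of splenic CD4+CD25+ cells were used. The authors deposited raw read counts per Ensembl gene for each library, by their naming from HTSeq-count in union mode without strand. The submitters' processing notes name mm10 as the build. The aligner is not given in the sources used here. The authors also deposited a table of signal values, the counts divided by a size factor per library, which were checked to equal the counts over a constant. Its columns of the authors' own comparison (mean, fold change, standard error, statistic, p-values) were not used. Reads on no gene or on several, 13.1% to 20.9%, were left out.

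For the comparison of aged with young counts, edgeR's quasi-likelihood test was used with TMM normalization, filterByExpr and no covariate (edgeR 4.0.16, R 4.3.3), with Benjamini-Hochberg adjustment over all 13904 genes tested. Genes under the filter were read from the fit without it (25469 genes). Fold changes are aged over young, and levels are CPM on the TMM scale with mean ± SD. Exact permutation tests were two-sided. No molecular identifiers were used, so intervals of pooled counts cover counting error only. Libraries of the same age differed beyond counting error. The cDNA kit was SMART-Seq v4.

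Alternatives were RLE, library size only, T cell marker counts as library size, DESeq2 1.42.0, limma voom (3.58.1), no filter, a minimum of 10 counts in each library, removal of haemoglobin, immunoglobulin and mitochondrial genes, the replicate number as a block, and each library left out. Ratios of chains were also taken with 1 count added and per kilobase. Removal of GC content and gene length trends was chosen after seeing the data. The tests were tested on simulated data.

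Named genes are the 8 genes, called genes of the listed families, signalling routes, transcription factors and Th17 programme, uncalled ligand and receptor genes with their counts, Foxp3, Il2ra, Cd4 and the 3 nearest profiles of each tested gene among genes whose mean log2 CPM reached 3. A few listed genes are left without values here. The genes and lists were chosen with earlier results of these data known. Gene models are GENCODE M21 on GRCm38, and promoter sequences are RefSeq's on GRCm38.p6, which held 4 of the 8 genes.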

Additional observations from a re-analysis of the deposited data

How the results depend on the processing

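The number of genes called was 2327. It was 1521 with T cell marker counts as library size, 292 with the replicate number as a block, 2910 with DESeq2, and 1237 to 3058 with a library left out (lowest without young replicate 4, highest without aged replicate 1). It fell by over 1.5 times also without aged replicate 3 (1262), young replicate 1 (1315) and young replicate 3 (1270). Of the 8 genes, the replicate block left 1 called, Il6ra. Under the block the log2 fold change of Il17ra was -0.70 (adjusted p = 0.0696, edgeR) and that of Il17a 3.44 (adjusted p = 0.157), both without a call. Among the listed genes, the block left 0 called of the transcription factors of Il10, of IL-17 receptor signalling and of the interleukin-6 family ligands. It also left 0 called of the dendritic, gamma delta, platelet, NK, T cell and plasma cell markers. Under the block 4 naive markers were called lower, 1 macrophage marker lower and 0 higher, and 2 neutrophil markers higher. In the Jak-Stat route 2 genes and in the Th17 programme 1 gene were called higher. The numbers do not pair the samples: deviations of same-numbered libraries correlated at -0.09, -0.29 and -0.14, and young replicate 4 has no partner. Il10 was 1.59 without a filter and 0.97 to 2.01 with a library left out. The Il10ra to Il10rb ratio, -0.11 on the log2 scale, was 0.0408 without aged replicate 2 and -0.19 to 0.0408 over the libraries left out. Il10ra, Il10rb, Il17rc and Il6st were not called in any alternative. All 8 genes kept the direction of their fold change in every alternative run. At least 10 counts in every library gave no value for Il17a and Il17rc. The cause of these shifts was not tested. Groups of 3 and 4 libraries limit precision for Il10, and 0 to 10 reads per library limit it for Il17a and Il17rc.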
